A study of Mus musculus with 6 samples.

Results

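The cytosolic ribosomal protein genes encode the protein part of the ribosome that translates nuclear messenger RNA. They were taken as every gene with a probe set of its own whose single annotated symbol is an Rps or Rpl number, with or without the suffix a, x, l or y, or is Rplp0, Rplp1, Rplp2 or Rpsa. The rule gave 46 genes of 18193 with a single-symbol probe set, 22 of the small (40S) and 24 of the large (60S) subunit, on 17 chromosomes. Each gene is represented by its brightest single-symbol probe set over the 6 arrays. The rule uses gene symbols and mean signal, not differences between samples, but it was set with earlier results of these data known.

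The samples are cultures of 32D, an established mouse myeloid cell line that depends on interleukin-3. The miR-9/9* arm has 3 samples, which express miR-9 together with miR-9* from the construct labelled C2-MiR-9. The empty vector arm, labelled A1-EV, has 3 samples too. Both arms grew in RPMI with 10% fetal calf serum, antibiotics and 10 ng/ml murine interleukin-3, and received no further treatment. The replicates, numbered 1 to 3 in each arm, are described as independent. How the cultures were separated, and whether an arm is a clone or a pool, is not given in the sources used here, so p-values measure the spread between these samples.

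A ribosome holds a single copy of nearly every one of these proteins, and their genes are expressed together in growing cells. Many of the messenger RNAs start with a C followed by pyrimidines, the terminal oligopyrimidine (TOP) tract, through which mTOR signalling adjusts their translation. An array measures how much of the messenger RNA is present and not how much of it is translated. A microRNA lowers messenger RNAs that pair with its seed, bases 2 to 8 from its 5′ end.

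The arms differ in the strands of the miR-9 precursor, which RefSeq (GRCm38.p6) lists at 3 loci with the same mature sequences. The copy on the plus strand of chromosome 3 is at chr3:88215613-88215635 for miR-9 (miR-9-5p) and chr3:88215652-88215673 for miR-9* (miR-9-3p). The seeds are in capitals, and the levels of the microRNAs themselves were not measured by these arrays.
miR-9: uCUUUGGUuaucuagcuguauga
miR-9*: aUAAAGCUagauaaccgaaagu

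Start-site sequences are shown for 5 members, chosen because the results turn on them or to contrast an annotated start with and without a tract near it. Each window runs from 30 bases before the RefSeq start to 15 bases from it (GRCm38.p6, given on the gene's own strand). Capitals mark a TOP-like tract, here a C and at least 5 further pyrimidines beginning within 5 bases of the start.
Rplp2 (plus strand, chr7:141447621-141447665): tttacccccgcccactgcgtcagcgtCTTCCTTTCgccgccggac
Rps10 (minus strand, chr17:27635230-27635274): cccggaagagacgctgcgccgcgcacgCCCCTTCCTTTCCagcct
Rps6 (minus strand, chr4:86857353-86857397): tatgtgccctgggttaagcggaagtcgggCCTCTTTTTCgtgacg
Rps27 (minus strand, chr3:90213634-90213678): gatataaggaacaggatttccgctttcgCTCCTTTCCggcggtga
Rplp0 (plus strand, chr5:115559437-115559481): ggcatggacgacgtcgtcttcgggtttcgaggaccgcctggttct

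A promoter entry was found for 40 of the 46 members. A TOP-like tract was present in 16 of the 40 (40%), against 11.9% of 27025 genes with an entry. Only tracts beginning within 5 bases of the annotated start count, so a member without a match is not shown to lack a tract. The letters CCGGAAG, a core bound by ETS factors, were found on either strand in the 300 bases around the start of 20 members (50%), against 9.93% of all genes. The letters AAGATGGC, a core bound by YY1, were found in 3 members (7.5%), against 3.19% of all genes. These matches describe the letters in the window and are not shown to be used in 32D cells.

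On these arrays the ribosomal protein genes fell into 3 ranges of MAS5 signal, a linear brightness that the authors scaled to a trimmed mean of 100 on each array. The mean signal of 34 members lay above 3000, between 3660 and 8243. A further 8 members (Rpl12, Rpl14, Rpl27a, Rpl37, Rpl39, Rps25, Rps27 and Rps6) passed the filter on low signal with means of 80.1 to 1424. The remaining 4 (Rpl3l, Rpl39l, Rps4l and Rps16) lay under the filter, a signal of 12.9, and were not tested. The line at 3000 was drawn after the signals were seen, in the gap between Rps27l at 3660 and Rpl37 at 1424, and signals of different probe sets do not rank genes by abundance. All 34 bright members were above the 99th percentile of all probe sets on every array. That percentile ran from 2488 to 2705 on the miR-9/9* arrays and from 2443 to 2985 on the empty vector arrays. The line at 3000 lies above all of these values, so this outcome was largely fixed by how the class was drawn.

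**Figure D1:**
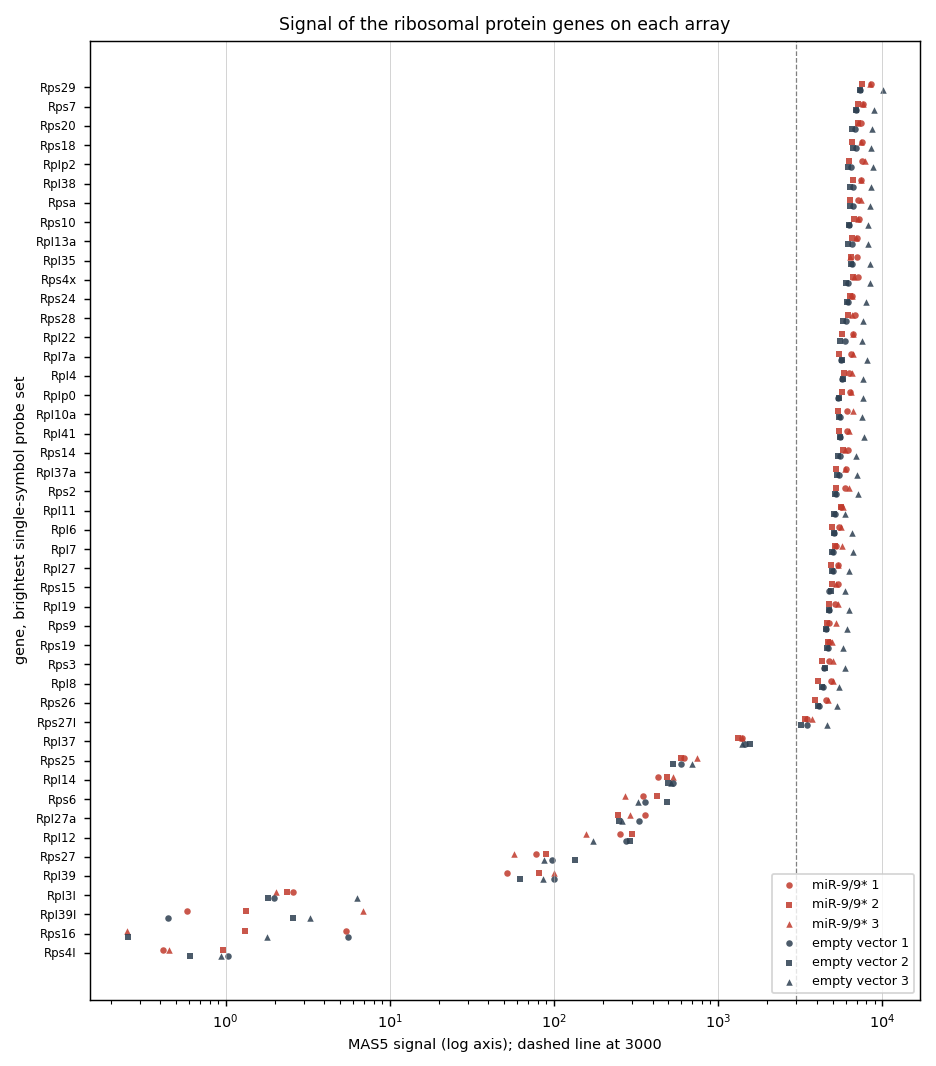
MAS5 signal (log axis) of the 46 ribosomal protein genes on each of the 6 arrays, 1 point per array, miR-9/9* in red and empty vector in dark blue. The 34 genes right of the dashed line at 3000 have means of 3660 to 8243 and their empty vector replicate 3 point lies to the right of the other 5, and the 4 genes at the bottom lie under the filter of 12.9.

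Several dim members are dim only in the probe set that the rule allows. The Rps16 set with a single symbol, 1455835_at, had signals of 5.46, 1.31 and 0.252 on the miR-9/9* arrays and 5.57, 0.256 and 1.79 on the empty vector arrays. A set annotated to Rps16 together with similar genes, 1416404_s_at, had 6440, 5836 and 6449 in miR-9/9* cells and 5708, 5764 and 7338 in empty vector cells. Bright sets shared with pseudogenes or similar genes also exist for Rps6, Rps25, Rps27, Rpl12, Rpl14, Rpl27a, Rpl37 and Rpl39. A further 28 ribosomal protein symbols, among them Rpl3, Rpl5, Rpl10 and Rplp1, occur here only in probe sets with several symbols and are not members. Of the 46 representative sets, 16 carry the suffix _x_at or _s_at, with which Affymetrix marks sets whose probes can also bind other transcripts.

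The tissue-restricted paralogues were at the bottom of the scale. Rpl3l, the form of Rpl3 found in heart and skeletal muscle, had 2.59, 2.37 and 2.02 in miR-9/9* cells and 1.99, 1.81 and 6.33 in empty vector cells. Rpl39l, known from testis, had 0.58, 1.34 and 6.88 against 0.443, 2.59 and 3.26 in empty vector cells. Rps4l had 0.414, 0.961 and 0.451 against 1.03, 0.605 and 0.941 in empty vector cells. None of these signals passed the filter, so no difference between the arms was tested for them.

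The first comparison asked whether expression of miR-9 and miR-9* changed the messenger RNA level of ribosomal protein genes. No member passed the test: in limma's moderated test on log2(signal + 16), 0 of 42 tested members passed an adjusted p of 0.05, with Benjamini-Hochberg adjustment over 10208 genes, of which 0.0588% were called. At an unadjusted p under 0.05 the count was also 0, against 4.61% of all genes. The median log2 fold change, miR-9/9* minus empty vector, was -0.03 over the 42 members and 0.01 over all tested genes. A value below 0 was found for 29 of the 42 members and for 47.6% of all genes, and 39 of the 42 were within 0.1 of 0. The sign of the members' median depended on single arrays: it was 0.10 without empty vector replicate 3 and 0.03 without miR-9/9* replicate 2.

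With the replicate number as a block, which compares same-numbered samples, the count was again 0 of 42, although 2.95% of all genes were then called. Under that block 1 member had an unadjusted p under 0.05, Rps27, against 17.0% of all genes. In 0 of 42 members did the 3 signals of one arm lie outside the range of the other arm, a separation seen in 9.84% of all genes. Both subunits gave like values, with medians of -0.02 for the 20 tested members of the 40S and -0.04 for the 22 of the 60S.

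**Figure D2:**
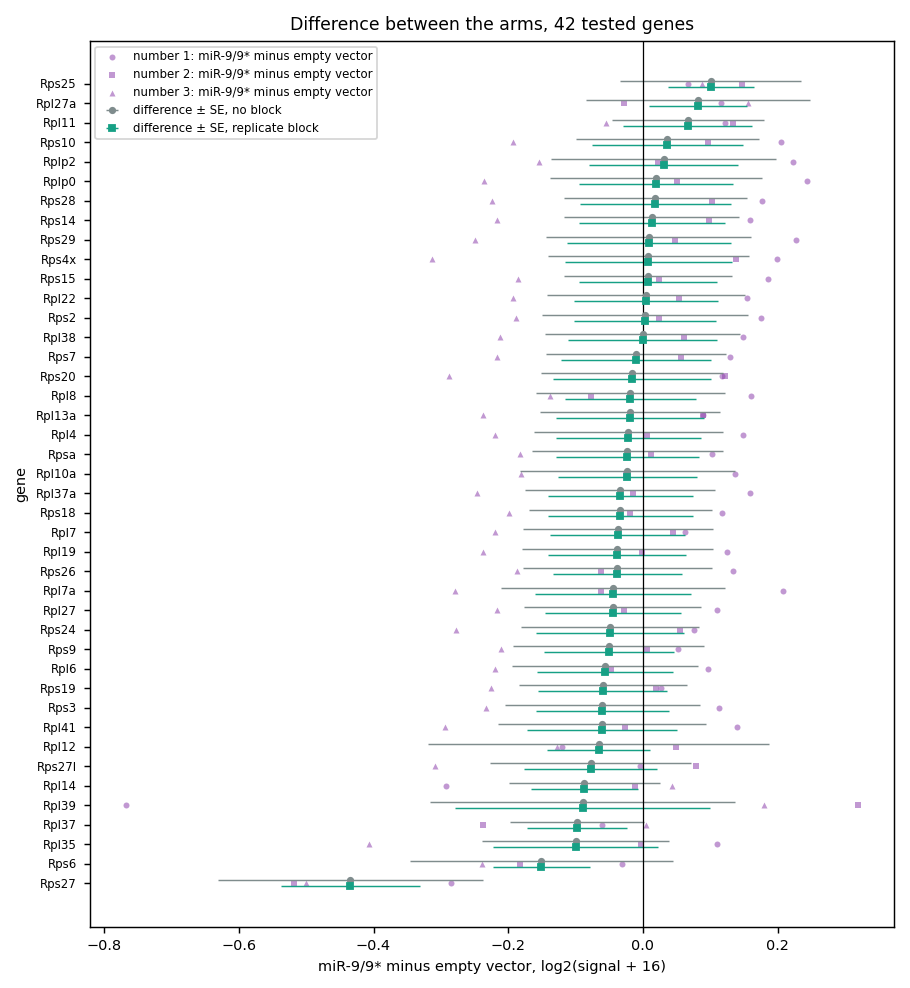
Log2 difference, miR-9/9* minus empty vector, for the 42 tested ribosomal protein genes, with the fitted difference ± SE without a block (grey) and with the replicate block (green) and the differences of the 3 same-numbered pairs (purple). Fitted values lie within 0.1 of 0 for 39 genes, and Rps27 at -0.43 lies lowest.

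Members of the stalk and of the core of the subunits differed little between the arms. Rplp0, the P stalk scaffold that anchors Rplp1 and Rplp2 and recruits translation factors, had signals of 6399, 5694 and 6508 in miR-9/9* cells and 5401, 5499 and 7671 in empty vector cells. The arms overlapped, with means of 6201 ± 442 and 6190 ± 1283 (SD, n = 3 each) and a log2 fold change of 0.02 (SE 0.157, limma adjusted p = 0.999). Rplp2, its stalk partner, had 7530, 6268 and 7928 in miR-9/9* cells and 6449, 6171 and 8821 in empty vector cells, a log2 fold change of 0.03. For both genes the empty vector arm held the highest array and also the lowest one.

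Rpsa, a 40S protein also known as the laminin receptor, had 7155, 6404 and 7447 in miR-9/9* cells and 6664, 6351 and 8457 in empty vector cells. Rps19, the gene most often mutated in human Diamond-Blackfan anaemia, had 4747, 4657 and 4940 in miR-9/9* cells and 4659, 4596 and 5779 in empty vector cells. Their log2 fold changes were -0.02 and -0.06, with overlapping arms. Of the 16 genes listed for that anaemia, a failure of red cell production, 10 are members. Of these 10, 0 were called, and their median log2 fold change was -0.02. Others on the list, among them Rpl5, Rpl15 and Rpl26, were read only by probe sets with several symbols.

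Rpl11 binds Mdm2 together with Rpl5 and the 5S RNA when ribosome assembly is disturbed. Its signals were 5624, 5614 and 5747 in miR-9/9* cells and 5166, 5116 and 5972 in empty vector cells, the narrowest relative range of the bright members at 1.17-fold between the highest and lowest array. Its log2 fold change of 0.07 (SE 0.112, limma adjusted p = 0.999) was the highest among the bright members and smaller than its standard error. Rpl35 was at the other end of the bright members with -0.10 (SE 0.139), from 7085, 6435 and 6406 in miR-9/9* cells and 6564, 6446 and 8499 in empty vector cells. The other 2 empty vector values of Rpl35 lay inside the miR-9/9* range.

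Rps27l, a paralogue of Rps27 that p53 can induce, had 3494, 3381 and 3744 in miR-9/9* cells and 3503, 3200 and 4639 in empty vector cells, a log2 fold change of -0.08. Rps4x, the X-linked 40S protein, had 7164, 6609 and 6776 in miR-9/9* cells and 6236, 6003 and 8426 in empty vector cells, a log2 fold change of 0.01. In each case the arms overlapped.

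Among the members, 3 differed the same way in all 3 same-numbered pairs, and all of them were among the 8 dim ones. Rps25, a 40S protein used by several viral internal ribosome entry sites, was the 1 member higher in every pair, as were 21.0% of all genes. Its signals were 625, 595 and 741 in miR-9/9* cells and 596, 536 and 696 in empty vector cells. The log2 fold change was 0.10 (SE 0.134, limma adjusted p = 0.999, and 0.481 with the block). The bright set that Rps25 shares with similar genes, 1451068_s_at, had a log2 fold change of -0.07. The pairs of that set differed by 0.09, -0.05 and -0.26, so the rise in every pair was seen in the dim set only. Rps27 and Rps6 were the 2 members lower in every pair, as were 18.1% of all genes.

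Rps27, a zinc finger protein of the 40S, showed the largest difference of any tested member. Its signals were 77.5, 89.8 and 56.9 in miR-9/9* cells and 97.9, 136 and 87.1 in empty vector cells. The arms overlapped, since the highest miR-9/9* value was above the lowest empty vector value, and the means were 74.8 ± 16.6 and 107 ± 25.4 (SD, n = 3 each). The log2 fold change of -0.43 (SE 0.197) had a limma adjusted p of 0.999, and with the block (SE 0.103) it had 0.0624, so it did not pass in either fit. The bright set that Rps27 shares with Rps27rt, 1415716_a_at, had 4522, 4067 and 4662 in miR-9/9* cells and 3952, 4117 and 5268 in empty vector cells, a log2 fold change of 0.00. The difference was thus seen in the dim set and not in the shared one.

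Rps6, the 40S protein that S6 kinase phosphorylates downstream of mTOR, had 350, 428 and 272 in miR-9/9* cells and 358, 488 and 324 in empty vector cells. Its log2 fold change was -0.15 (SE 0.195, limma adjusted p = 0.999; 0.33 with the block), smaller than its standard error without a block. The sets that Rps6 shares with its pseudogene Rps6-ps4 gave different answers. The brightest, 1434377_x_at, had 6983, 6731 and 7197 in miR-9/9* cells and 6313, 6307 and 8321 in empty vector cells, a log2 fold change of 0.01. A dimmer one, 1435817_x_at, had 1416, 1306 and 1866 in miR-9/9* cells and 1714, 1879 and 2490 in empty vector cells, a log2 fold change of -0.40 with an adjusted p of 0.0347 under the block and 1.00 without it, limma over all probe sets. Another 2 dim sets, 1437246_x_at and 1455981_at, were also lower in all 3 pairs, with log2 fold changes of -0.44 and -0.42, and did not pass (adjusted p = 0.16 and 0.13 with the block). The set 1435817_x_at was the 1 called of 106 several-symbol ribosomal protein sets above the filter, in a fit that called 1.95% of all probe sets.

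Rpl22, a 60S protein that ribosomes can do without and whose loss disturbs lymphocyte development in mice, was likewise read by sets that disagreed. Its brightest set had 6623, 5743 and 6644 in miR-9/9* cells and 5949, 5532 and 7599 in empty vector cells, a log2 fold change of 0.01, and its set 1416603_at gave -0.07. Its dimmest set, 1448398_s_at, had 774, 1033 and 620 in miR-9/9* cells and 584, 845 and 418 in empty vector cells. That is a log2 fold change of 0.41, higher in all 3 pairs, with an adjusted p of 0.0257 under the block and 1.00 without it (limma over all probe sets). It was the 1 set called of the 90 single-symbol member sets above the filter. Without the block 0 of these 90 sets and 0 of the 106 several-symbol sets were called, against 0.00888% of all probe sets. Of the 19 members with several such sets, 12 had sets of opposite sign.

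The second question was how far the members vary between the replicate numbers. The 34 bright members moved together between arrays, and empty vector replicate 3 was the highest array for all 34 of them. That is 34 of the 42 tested members, whereas that array was the highest for 19.7% of all tested genes. The log2 level on it was above the mean of empty vector replicates 1 and 2 by a median of 0.39 over the bright members (range 0.22 to 0.51), while miR-9/9* replicate 3 was above the mean of miR-9/9* replicates 1 and 2 by 0.10. Rps29 had the highest signal on that array, 10086, against 8599, 7597 and 8484 in miR-9/9* cells and 7346 and 7348 on the other empty vector arrays.

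**Figure D3:**
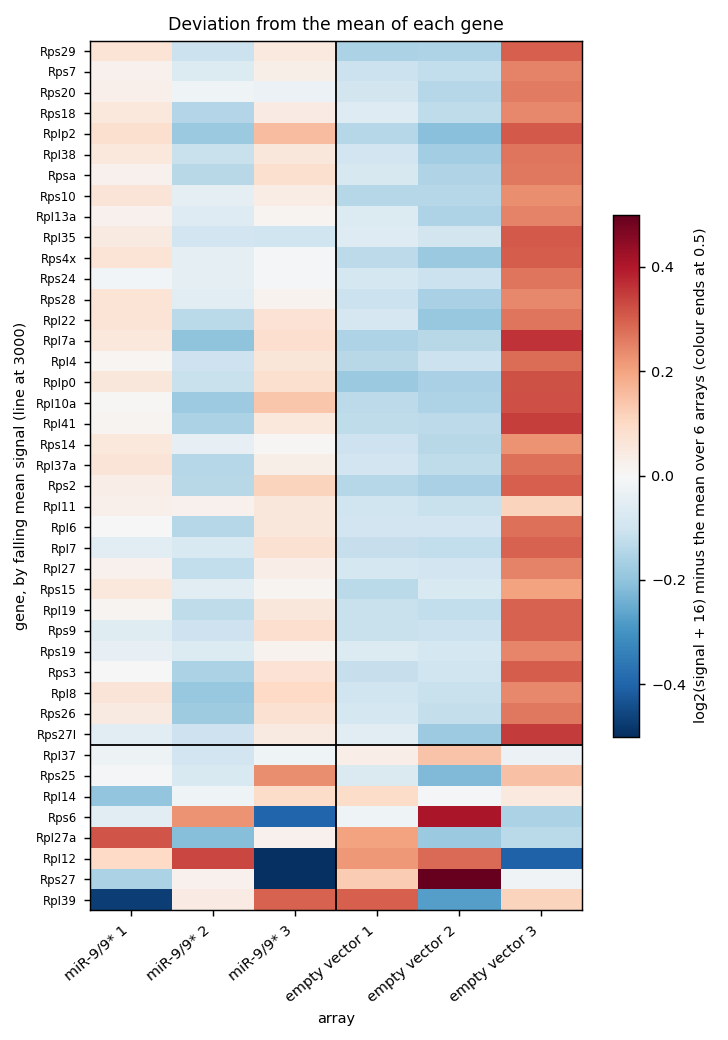
Log2(signal + 16) of each of the 42 tested ribosomal protein genes minus its mean over 6 arrays, genes ordered by falling mean signal, miR-9/9* arrays left and empty vector arrays right. Above the line at 3000 the empty vector replicate 3 column is red for all 34 genes, and below it the 8 dim genes follow no common order.

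The differences within the pairs ran in opposite directions. Over the bright members the median of miR-9/9* minus empty vector was 0.14 in pair 1, 0.02 in pair 2 and -0.22 in pair 3, on the log2 scale. The miR-9/9* sample was the higher one for 33 of 34 genes in pair 1, for 22 in pair 2 and for 0 in pair 3. Quantile normalization, which gives all arrays the same distribution of signals, brought these medians to -0.002, -0.007 and 0.002. After it empty vector replicate 3 was the highest array for 4 of the 42 tested members, against 23.3% of all genes. The bright members hold top ranks on every array, where this normalization leaves their median little room to differ between arrays.

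**Figure D4:**
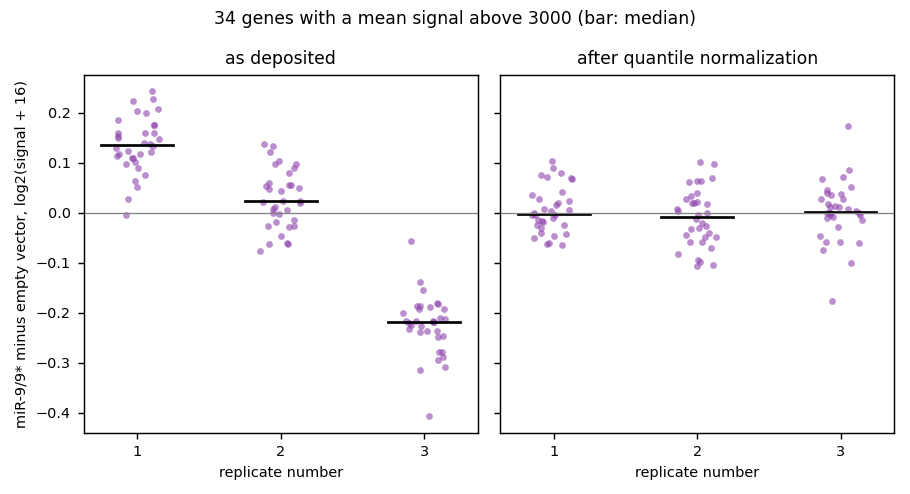
Log2 difference, miR-9/9* minus empty vector, in each same-numbered pair for the 34 ribosomal protein genes with a mean signal above 3000, 1 point per gene with the median as a bar. As deposited the medians are 0.14, 0.02 and -0.22, and after quantile normalization all 3 lie within 0.01 of 0.

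Other bright probe sets shared the pattern. The 61 other genes in the signal range of the bright members were higher on empty vector replicate 3 by a median of 0.40, and 54 of them had their highest signal there. The Affymetrix control sets of Gapdh and beta-actin did so too, with 6700 for the 5′ set of Gapdh on that array, against 4970, 4742 and 5682 on the miR-9/9* arrays and 4588 and 4854 on the other empty vector arrays. The 3′ to 5′ signal ratio of Gapdh, a sign of RNA integrity, was 0.861, 0.832 and 0.76 in miR-9/9* samples and 0.889, 0.843 and 0.739 in empty vector samples. That of beta-actin was 1.35, 1.20 and 1.24 in miR-9/9* samples and 1.29, 1.19 and 1.29 in empty vector samples. The Gapdh ratio was lowest in replicate 3 of both arms, and the beta-actin ratio did not set replicate 3 apart. The 5′ set of 18S RNA did not follow the pattern, with 1126, 542 and 1069 in miR-9/9* samples and 2451, 663 and 1104 in empty vector samples. The part of RNA quality or labelling in the pattern was not tested.

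The summed signal of the 46 members made up 2.99, 2.78 and 2.97% of all probe set signal in miR-9/9* samples and 2.77, 2.75 and 3.30% in empty vector samples. Only the representative set of each member enters this sum, while the total covers every probe set except the controls. The means of 2.92 ± 0.11 and 2.94 ± 0.31% (SD, n = 3 each) overlapped within the spread. After quantile normalization the shares were 2.94, 2.92 and 2.94% in miR-9/9* samples and 2.93, 2.93 and 2.94% in empty vector samples. Their near equality follows largely from the method, because the bright members hold top ranks on every array. With every single-symbol set of the members counted, the shares as deposited were 5.35, 5.02 and 5.31% in miR-9/9* samples. In empty vector samples they were 5.01, 4.97 and 5.94%. With the several-symbol ribosomal protein sets added, they were 11.9, 11.2 and 11.8% in miR-9/9* samples and 11.1, 11.1 and 13.1% in empty vector samples.

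In the F test of the replicate number terms, 5 of 42 members were called, which was below the 24.3% of all genes called in the same test. All 5 were dim members (Rpl12, Rps6, Rpl27a, Rps25 and Rps27), and 0 of the 34 bright ones passed. At an unadjusted p under 0.05 the count was 8, against 40.8% of all genes. The count rested on 1 array: without miR-9/9* replicate 3, when empty vector replicate 3 stands alone for its number, 36 of 42 members were called, against 26.0% of all genes.

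The set of Rpl12, which helps form the base of the stalk, varied most between numbers among the tested members. Its signals were 253, 301 and 158 in miR-9/9* cells and 277, 290 and 174 in empty vector cells, so replicate 3 was the lowest in both arms (limma F test adjusted p = 0.00205). The Rpl27a set had 360, 245 and 291 in miR-9/9* cells and 331, 250 and 259 in empty vector cells. Replicate 1 was the highest in both arms (limma F test adjusted p = 0.0162). The Rps6 and Rps27 sets were highest in replicate 2 and lowest in replicate 3 of both arms (adjusted p = 0.00582 and 0.0328), and the Rps25 set was highest in replicate 3 of both arms (0.0302). The Rpl12, Rps6 and Rps27 sets thus shared an order, replicate 2 above replicate 1 above replicate 3 in both arms. Bright shared sets did not all follow these orders. The Rpl12 set 1435725_x_at had 6941, 6364 and 7064 in miR-9/9* cells and 6443, 6350 and 8354 in empty vector cells. The Rpl27a set 1426661_at had 6103, 5557 and 5983 in miR-9/9* cells and 5244, 5298 and 6976 in empty vector cells. Replicate 1 was thus lowest for Rpl27a in empty vector cells. The brightest shared sets of Rpl12, Rps6, Rps25 and Rps27 were highest in replicate 3 of both arms.

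At the other end, the Rpl37 set had the smallest range between number means of the 42 tested members. Its signals were 1396, 1329 and 1400 in miR-9/9* cells and 1457, 1570 and 1395 in empty vector cells. A brighter set shared with Rpl37rt, 1434872_x_at, had 6873, 6103 and 6997 in miR-9/9* cells and 6189, 6116 and 7897 in empty vector cells. Rpl14 had 433, 491 and 532 in miR-9/9* cells and 533, 495 and 516 in empty vector cells. Rpl39, a small protein of the exit tunnel, did not have a small range. It was 0.32 on the log2 scale, against a median of 0.30 over the tested members. The Rpl39 signals were 52.1, 81.2 and 99.6 in miR-9/9* cells and 99.9, 61.9 and 86.1 in empty vector cells, and its pairs differed in opposite directions. The limma F test adjusted p-values of Rpl37, Rpl14 and Rpl39 were 0.91, 0.588 and 0.479, and none of the 3 was called between the arms.

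Genes that work with the cytosolic ribosome gave no calls between the arms either. Of 33 translation factors tested 0 were called in either fit, with a median log2 fold change of 0.01. Eef1a1, which brings aminoacyl-tRNA to the ribosome, had 6860, 6163 and 6997 in miR-9/9* cells and 5949, 5871 and 8129 in empty vector cells. Of 58 ribosome biogenesis genes tested 0 were called in either fit, with a median of 0.02. Npm1, a nucleolar chaperone, had 5478, 5186 and 5850 in miR-9/9* cells and 5057, 4901 and 6894 in empty vector cells. Fau, whose product is cleaved to a 40S protein, had a log2 fold change of 0.00 (SE 0.124). For all 3 genes empty vector replicate 3 was again the highest array. Over the lists it was the highest for 24 of the 33 translation factors and 24 of the 58 ribosome biogenesis genes, against 19.7% of all tested genes.

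Some markers of other blood cell types passed the test with the block, in which 2.95% of all genes were called. These were 3 of 7 tested erythroid markers, 4 of 6 megakaryocyte markers and 2 of 3 eosinophil markers, called higher in miR-9/9* cells, and 3 of 6 late neutrophil markers, called lower. Their difference from the members was not tested. Without the block 0 of these were called. Of 12 markers of 32D myeloid progenitors, 10 passed the filter, among them Ptprc, the IL-3 receptor genes and Myb, while Elane and Cd34 did not. With the block 1 of these 10 was called lower, Csf2rb, the shared receptor chain. In that fit 0 of 6 proliferation markers and 0 of 4 mast cell and basophil markers were called, and 0 of 5 measured lymphoid markers were above the filter. In bulk RNA a changed number of cells and a changed level per cell cannot be told apart.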

How the data were processed

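The deposited intensity values are MAS5 signals, per the submitters' processing notes, which give no version. The scanner is not given in the sources used here. Per the labels' protocols, 6 ug of total RNA per sample went into the biotin labelling, so each array has 1 colour. Of 45101 probe sets, 64 are controls. Symbols came from a 2016 platform annotation, and 34945 probe sets carry 1 symbol. All 46 members were matched to RefSeq (GRCm38.p6) for chromosomes. Detection calls were not used. By array, the median signal was 12.0 to 15.1, and Spearman correlations over all probe sets were 0.919 to 0.942, with 0 identical pairs. The number of arrays limits precision.

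Signals were taken as log2(signal + 16). Of all genes, 10208 had a mean log2 value at or above the median of all probe sets (4.86, a signal of 12.9) and were tested. The comparison of the arms used limma 3.58.1 under R 4.3.3 (eBayes with trend, two-sided, 4 residual degrees of freedom, Benjamini-Hochberg over all tested genes). The replicate number as a block (2 degrees of freedom) was an alternative, and an F test of the number terms used the same fit. Across genes, the deviations of arrays 1, 2 and 3 from the mean of their arm correlated between the arms (0.492, 0.617 and 0.683), so the numbers were taken to pair the samples. The labels do not say what a number shares. The script was tested on simulated data.

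Members and gene lists were chosen with earlier results of these data known. Named members are those called, those differing one way in 3 pairs, the 5 with the largest and 3 with the smallest range between numbers, and members with a known special role. A few more are named for values already seen (Rps29, Rps16, Rpl35). The signal class above 3000 and the tests by probe set were added after the data were seen. Other pseudocounts, filters, scalings, variance models, probe set averages and left-out arrays were tried.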

Additional observations from a re-analysis of the deposited data

How the results depend on the processing

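The count of 0 members called between the arms held under other pseudocounts, filters, scalings and variance models, with array weights, without any 1 array, and with the replicate block alone or without any 1 number of both arms. The exception among the choices made with the design was the block with all probe sets of a gene averaged, which called 1 member, Rps27 (limma adjusted p = 0.0370, 9586 genes tested). Rps27 has 1 single-symbol set, so its own values were the same there. With probe sets as units, 0 member sets were called without the block and 1 with it, the dimmest Rpl22 set. The members' median log2 fold change ran from -0.10 to 0.10 when 1 array was left out, and the difference in share of signal from -0.12 to 0.15 percentage points. The median was 0.06 with array weights. Of 16 tested named members, 12 changed sign in some of 27 alternatives, and Rpl11, Rpl37, Rps25 and Rps27 did not. The count called between replicate numbers was 5, against 3 without a filter, 3 after quantile normalization, 2 without the variance trend, 0 among the members above 3000, and 3 to 36 when 1 array was left out. Dim sets limit Rps27 and Rpl39, whose signals lay near 100.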

Other observations

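The mitochondrial ribosomal proteins build the separate ribosome that translates mitochondrial messages. Of 76 tested, 45 were called in the F test of the replicate number on the deposited scale, against 24.3% of all genes. They were higher on empty vector replicate 3 than on the mean of the other empty vector arrays by a median of 0.38 on the log2 scale, and by 0.35 after quantile normalization. For the bright cytosolic members these values were 0.39 and -0.002. The second of these was nearly fixed in advance. Quantile normalization gives the top ranks, which the bright members hold, the same values on every array. The cytosolic and mitochondrial values after it therefore cannot be set against each other. The difference between these sets of genes was not tested. Between the arms 0 of the 76 were called without the block and 1 was lower with it, Mrpl54, with 180, 208 and 231 in miR-9/9* cells and 277, 261 and 351 in empty vector cells (log2 fold change -0.48, limma adjusted p = 0.0166 with the block and 0.755 without).

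Of 6 tested genes of the p53 response, which free Rpl5 and Rpl11 can activate through Mdm2, 1 was called with the block and 0 without. That gene was Ccng1, with 1042, 772 and 1273 in miR-9/9* cells and 1886, 1465 and 2428 in empty vector cells (log2 fold change -0.89, limma adjusted p = 0.000527 with the block and 0.494 without). The other 5 did not pass.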
